A study of Mus musculus with 6 samples.

Results

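The tuft cell genes described here are 9 marker genes of the intestinal tuft cell, taken by gene symbol from RNA sequencing of mouse colonic organoids. They are Dclk1, Pou2f3, Trpm5, Gfi1b, Il25, Alox5, Ptgs1, Avil and Sh2d6. Values for 8 of the 9 were among the 25067 gene rows analysed, and Il25 was not analysed here. The organoids, cultured from colonic crypts, carried floxed alleles (f/f) of Prkci and of Prkcz, the genes of the atypical protein kinases C (aPKCs). They also carried Villin-CreERT2, a Cre recombinase that needs tamoxifen and is driven by the Villin promoter of the intestinal epithelium. They came from C57BL/6 animals 8 weeks old and were grown in medium with WNT3A, EGF, Noggin and R-spondin 1. After passage they received 4-hydroxytamoxifen (4-OHT, to delete both kinases) or ethanol as vehicle, and RNA was taken after 3 days, giving 3 libraries per group. Both groups have the same floxed alleles and the same Cre, and the labels call the vehicle group wild type. No 4-OHT library without Cre or without the floxed alleles was analysed here, so loss of aPKC, Cre activity and 4-OHT cannot be told apart. The labels do not say whether libraries came from separate animals or cultures, so the tests measure the spread between these libraries, which may be technical.

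Tuft cells are rare chemosensory cells of the gut epithelium that arise from crypt progenitors. POU2F3 is the transcription factor without which they do not form, and GFI1B is another nuclear factor they express. They read luminal signals through a taste-type cascade that opens the cation channel TRPM5, and answer with the cytokine IL-25, which alerts type 2 lymphoid cells, and with leukotrienes and prostaglandins made by the 5-lipoxygenase ALOX5 and the cyclooxygenase PTGS1. DCLK1, a microtubule-associated kinase, and advillin (Avil), an actin-binding protein of the villin family, belong to the cytoskeleton of the cell and its apical tuft, and SH2D6 is an SH2-domain adaptor.

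Of the 8 genes, 7 had few reads in both groups, and only Avil had many. Gfi1b had no read in any of the 6 libraries, and Pou2f3 had between 0 and 6. Avil was higher in 4-OHT organoids, by 1.37-fold, where 22.7% of all genes tested were called higher. Of the other members only Trpm5 had enough reads for a test, and it did not pass. The libraries held between 15804709 and 26957612 reads on genes, and a gene without reads in a library may still have had up to 3, for counting error only. Of the targeted genes, the normalized count of Prkcz was 912 ± 37.9 with vehicle and 281 ± 13.6 with 4-OHT, and that of Prkci 3520 ± 86.9 and 3021 ± 132 (SD, n = 3 each). Both were lower with 4-OHT, Prkcz at 0.31 and Prkci at 0.86 of vehicle (limma adjusted p = 3.2e-12 and 8.1e-04). The fall of Prkci was thus small, and these counts do not show how far that gene was deleted. In 4-OHT replicates 2 and 3, reads of Paneth cell, ileal and immunoglobulin genes stood apart from the other libraries, and values without both are given below. A normalized count is the number of reads on a gene divided by 1 scaling factor per library, and it is not corrected for gene length.

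**Figure D1:**
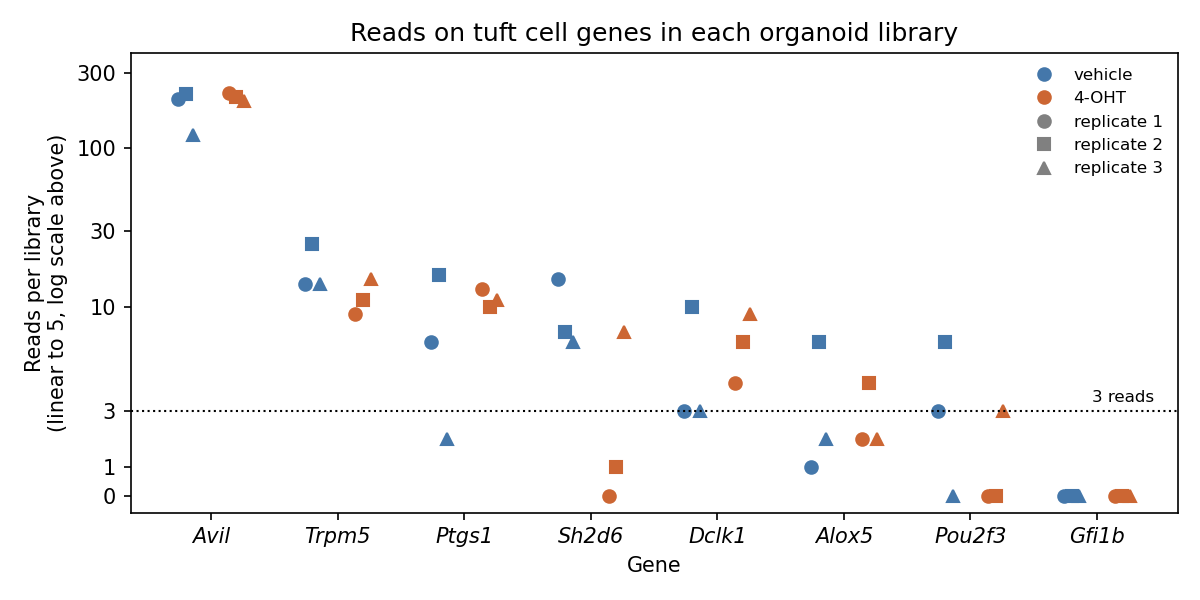
Reads of the 8 tuft cell genes (horizontal axis) in each of the 6 libraries (vertical axis, linear up to 5 reads and logarithmic above), with vehicle in blue, 4-OHT in orange and the symbol showing the replicate. Avil lies between 122 and 225 reads, the other 7 genes at 25 reads or fewer, and Gfi1b at 0 throughout; the dotted line marks 3 reads.

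Before the values, the start regions of Avil and Trpm5 are shown, because these were the only members with enough reads to be tested. POU2F3 belongs to the POU factors, which bind the octamer ATGCAAAT. The windows come from RefSeq on build GRCm38.p6 and run from 250 bases before the annotated start to 50 bases after it, read 5′ to 3′ on the strand of the gene. The Avil window lies at chr10:127000459-127000758 on the plus strand and that of Trpm5 at chr7:143094593-143094892 on the minus strand. The submitters' processing notes name another build, GRCm39, so these coordinates are not those of the reads. Capitals mark ATGCAAA, the octamer without its last base, or its reverse complement TTTGCAT.
Avil: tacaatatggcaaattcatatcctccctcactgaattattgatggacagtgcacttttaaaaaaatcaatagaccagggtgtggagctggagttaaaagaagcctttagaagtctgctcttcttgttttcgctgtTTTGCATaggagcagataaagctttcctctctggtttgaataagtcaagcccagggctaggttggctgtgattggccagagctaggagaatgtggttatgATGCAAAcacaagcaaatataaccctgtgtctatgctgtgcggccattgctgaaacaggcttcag
Trpm5: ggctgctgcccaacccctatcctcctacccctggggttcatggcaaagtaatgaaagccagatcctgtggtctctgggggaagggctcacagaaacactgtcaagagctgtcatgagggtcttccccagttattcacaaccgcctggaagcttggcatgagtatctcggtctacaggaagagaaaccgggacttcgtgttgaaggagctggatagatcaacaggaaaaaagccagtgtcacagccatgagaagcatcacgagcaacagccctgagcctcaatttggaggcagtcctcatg
The whole octamer was in none of the 8 windows of the 7 members that have one, and in 1.74% of the 32851 windows of all genes, counting both strands. The 7 letters ATGCAAA, which every octamer also holds, were in 1 of the 8 windows, that of Avil, and in 4.63% of all windows. In Avil they occur once on each strand, beginning at bases 136 and 236 of the window. These are matches of letters and not measured binding.

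The nuclear factors of the tuft cell were at or near the lowest number of reads. Pou2f3 had 3, 6 and 0 reads in vehicle replicates 1, 2 and 3, and 0, 0 and 3 reads in 4-OHT replicates 1, 2 and 3. The 2 groups overlap, with 1 library at 0 among the vehicle and 2 at 0 among the 4-OHT libraries. The ratio of the depth-scaled reads, 4-OHT over vehicle, was 0.39, with an exact 95% counting interval from 0.068 to 1.57. Gfi1b, with 0 reads in all libraries, allows at most a normalized count of 2.13 to 3.63 in a library (3 reads). For Pou2f3 the interval covers a fall, no change and a rise of up to 1.57-fold, for counting error only. For Gfi1b no ratio could be formed, and a change under those bounds was not detectable at this depth.

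Avil was the exception among the members. Its reads numbered 206, 222 and 122 with vehicle and 225, 212 and 198 with 4-OHT. As normalized counts these were 192, 157 and 148 with vehicle and 232, 220 and 225 with 4-OHT. Each 4-OHT library thus lay above each vehicle library, and the 4-OHT libraries were closer to each other than the vehicle libraries were. The means were 166 ± 23.4 and 226 ± 6.37 (SD, n = 3 each), and on the scale of log2(normalized count + 1) Avil was higher by 0.45 (SE 0.12, limma adjusted p = 0.0047). Over all 13210 genes tested, 43.6% were called in either direction and 22.7% were called higher, and for 26.8% every 4-OHT library lay above every vehicle library (52.1% without overlap in either direction), so a call like that of Avil was common in these libraries. Its call was lost when 4-OHT replicates 2 and 3 were both left out, where the log2 fold change was 0.49 with a limma adjusted p of 0.066 and 27.0% of all genes were called.

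Avil was far below Vil1 in level. Per kilobase of exon it had a normalized count of 48.8 with vehicle and 66.5 with 4-OHT, against 4162 and 4899 for Vil1, which encodes villin, its relative in the microvilli of absorptive cells. Vil1 rose too, by 0.24 on the log2 scale (SE 0.04, limma adjusted p = 7.4e-05). Exons of Avil share 165 bases (4.86% of its exon length) with Tsfm, a mitochondrial translation factor gene on the opposite strand, and the labels do not say whether counting used strand. At the mean level per base of Tsfm, those 165 bases would carry a normalized count of 43.8 with vehicle and 39.1 with 4-OHT. Tsfm itself had 770 ± 65.1 (SD, n = 3) with vehicle and 689 ± 9.48 (SD, n = 3) with 4-OHT, and did not pass the test (log2 fold change -0.16, limma adjusted p = 0.078). Its part in the Avil value was not tested. Of the stretches of 31 bases in Avil transcripts, 4.11% also occur in transcripts of other genes, mainly Tsfm.

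Trpm5, the channel of the taste-type cascade, was the other member that reached the minimum for a test, a mean of 10 over the libraries. Its reads were 14, 25 and 14 with vehicle and 9, 11 and 15 with 4-OHT. The normalized counts were 13.1, 17.7 and 16.9 with vehicle and 9.30, 11.4 and 17.1 with 4-OHT, so 2 of the 4-OHT libraries lay below all vehicle libraries and the third among them. The log2 fold change was -0.34 (SE 0.38, limma adjusted p = 0.50). The exons of Trpm5 share 220 bases with Tssc4 on the opposite strand, a gene with a normalized count of 586 ± 18.9 (SD, n = 3) with vehicle and 563 ± 13.4 (SD, n = 3) with 4-OHT. At its mean level per base Tssc4 would place 69.9 and 67.1 on those bases, more than the whole Trpm5 count of 15.9 ± 2.50 (SD, n = 3) and 12.6 ± 4.02 (SD, n = 3). How many of the Trpm5 reads lie there was not tested, so the value is an uncertain measure of the channel.

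**Figure D2:**
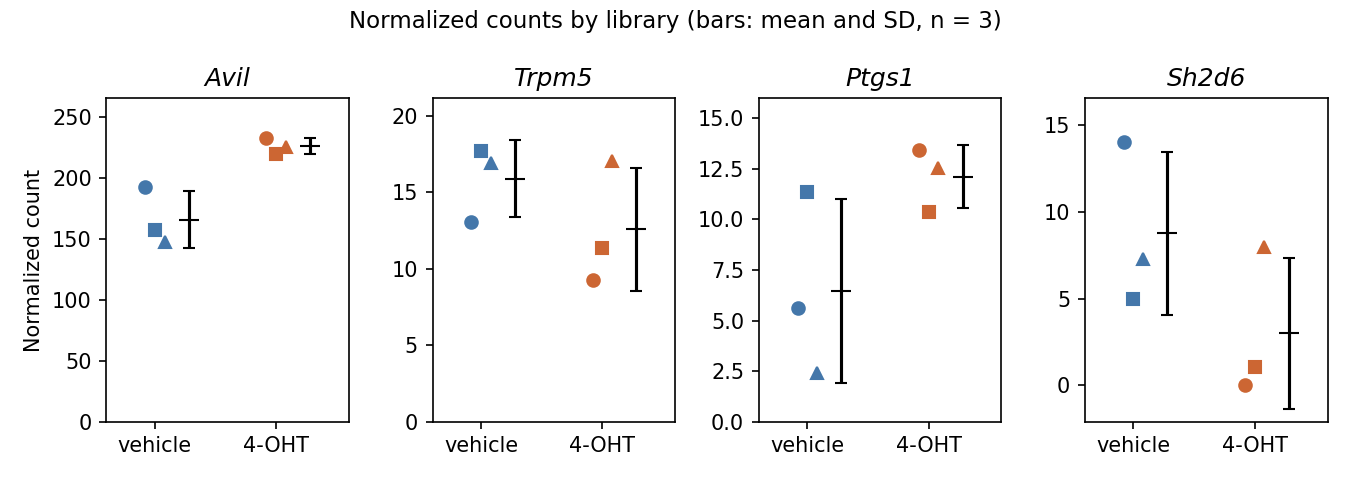
Normalized counts (vertical axes, each with its own range) of Avil, Trpm5, Ptgs1 and Sh2d6 in the 3 vehicle and 3 4-OHT libraries (horizontal axes), with the mean and SD beside the points. The groups are apart for Avil (148 to 192 against 220 to 232) and overlap for the other 3 genes.

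The eicosanoid enzymes among the members were both under the minimum for a test. Ptgs1 had 6, 16 and 2 reads with vehicle and 13, 10 and 11 with 4-OHT. Its normalized counts were 5.60, 11.3 and 2.42 with vehicle and 13.4, 10.4 and 12.5 with 4-OHT, so vehicle replicate 2 lay among the 4-OHT libraries. The depth-scaled ratio was 1.67, with a counting interval from 0.96 to 2.94. Alox5 had 1, 6 and 2 reads with vehicle and 2, 4 and 2 with 4-OHT, a ratio of 1.05 with an interval from 0.35 to 3.05. The levels of Alox5 were alike in range, and the interval leaves room for changes larger than 2-fold in either direction.

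Dclk1 had 3, 10 and 3 reads with vehicle and 4, 6 and 9 with 4-OHT, and the groups overlapped. Its ratio was 1.40 with an interval from 0.68 to 2.90. Sh2d6 had 15, 7 and 6 reads with vehicle and 0, 1 and 7 with 4-OHT. The normalized counts of Sh2d6 were 14.0, 4.97 and 7.26 with vehicle and 0, 1.04 and 7.97 with 4-OHT. Both 4-OHT replicates 1 and 2 were below the vehicle libraries, whereas replicate 3 lay above 2 of them. The depth-scaled ratio was 0.34, with a counting interval from 0.13 to 0.76, which leaves out the spread between libraries. In the limma fit without a minimum on low values, the log2 fold change of Sh2d6 was -1.78 with an adjusted p of 0.060. The limma adjusted p in that fit was 0.63 for Dclk1, 0.22 for Ptgs1, 0.53 for Pou2f3 and 0.86 for Alox5. With edgeR's quasi-likelihood test on the recovered reads of every gene with a read, a test chosen after seeing the data, Sh2d6 had an unadjusted p of 0.040 and an adjusted p of 0.14. In that test 24.5% of 23313 genes were called, and the unadjusted edgeR p was 0.47 for Dclk1, 0.15 for Ptgs1, 0.37 for Pou2f3 and 0.92 for Alox5. The groups overlapped for all 5 members with reads and a mean under 10, while they did not for 7.87% of all genes of that kind.

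Per kilobase of exon, the order of the members with vehicle was Avil (normalized count 48.8), Sh2d6 (5.17), Trpm5 (2.49), Ptgs1 (1.66), Pou2f3 (0.762), Alox5 (0.618), Dclk1 (0.295) and Gfi1b (0). From Sh2d6 downwards the neighbours in this order rest on few reads, and no order among them is drawn. Summed over the 8 members, the libraries held 12.2, 10.8 and 9.43 RPM (reads scaled to the same library total) with vehicle and 13.1, 12.5 and 13.9 with 4-OHT. Without Avil the sum was 2.06, 2.60 and 1.71 with vehicle and 1.45, 1.63 and 2.67 with 4-OHT, and the groups overlapped. In bulk RNA fewer cells of a type and less RNA per cell cannot be told apart.

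Markers of other cell types bear on genes this low. The markers of colon epithelium, led by the keratin gene Krt8, summed to 10059 to 10342 RPM with vehicle and 12893 to 13927 with 4-OHT, and all 8 were tested. All 8 goblet cell markers and all 8 enteroendocrine markers passed the minimum, against 2 of the 8 tuft members. Over all genes 13210 of 25067 passed it, as did 26 of the 55 other tuft-associated genes described below. Goblet markers summed to 382 to 476 RPM with vehicle and 400 to 450 with 4-OHT, and enteroendocrine markers to 33.2 to 48.2 and 51.5 to 59.6. Single genes were Muc2, the main gut mucin (2616 ± 489 and 2318 ± 192, SD, n = 3 each), and Chga, chromogranin A of hormone cells (126 ± 27.1 and 166 ± 11.2, SD, n = 3 each). Atoh1, the factor of the secretory lineage, had 172 ± 7.92 with vehicle and 146 ± 14.1 with 4-OHT (SD, n = 3 each, limma adjusted p = 0.13). Among these, Chga passed the test (limma adjusted p = 0.029), a call lost in 7 of 17 alternatives, with an adjusted p of up to 0.29. Of the lists, 5 goblet markers were higher and 1 lower, 5 enteroendocrine markers higher and 0 lower, and 4 epithelial markers higher and 2 lower, of 8 tested in each list, where 22.7% of all genes were higher and 21.0% lower.

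**Figure D3:**
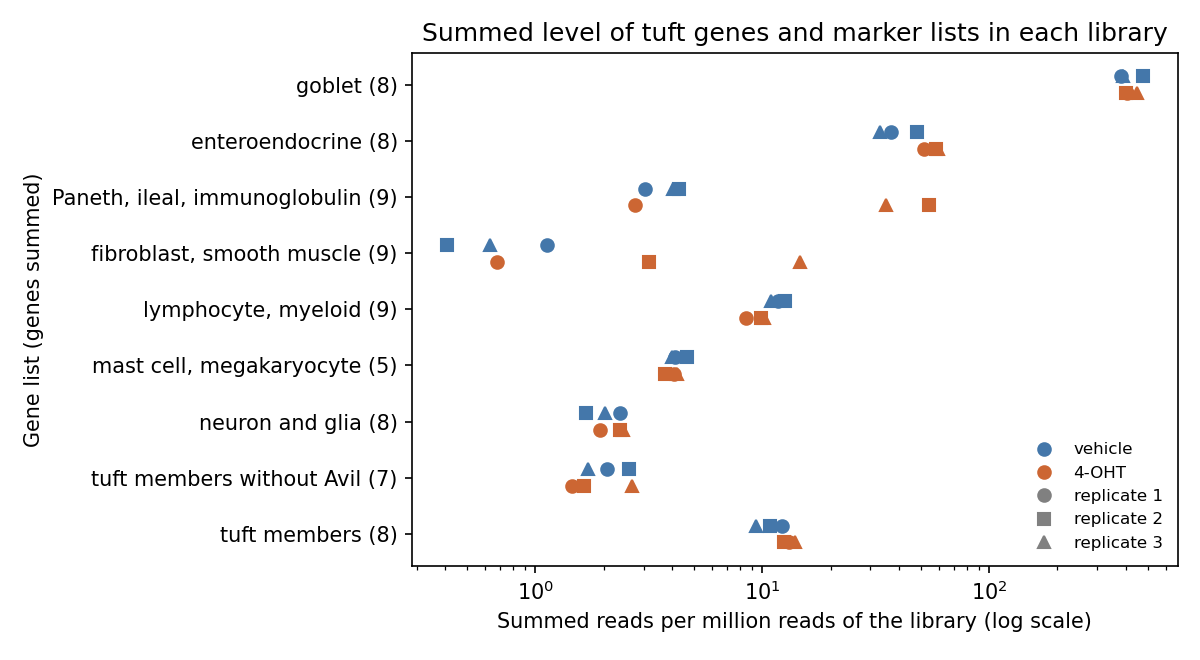
Summed RPM of each library (horizontal axis, log scale) for the tuft members and for marker lists of other cell types (vertical axis), with vehicle in blue and 4-OHT in orange. The tuft members without Avil lie between 1.45 and 2.67, while the Paneth, ileal and immunoglobulin list stands at 54.5 and 35.1 in 4-OHT replicates 2 and 3 and at 2.75 to 4.30 in the other libraries.

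The 9 Paneth, ileal and immunoglobulin markers, chosen with earlier results of these data known, summed to 3.04, 4.30 and 4.05 RPM with vehicle and to 2.75, 54.5 and 35.1 in 4-OHT replicates 1, 2 and 3. The 9 fibroblast and smooth muscle markers summed to 0.408 to 1.13 with vehicle and to 0.675, 3.17 and 14.7 with 4-OHT, with Col3a1 at 100 reads in 4-OHT replicate 3, 6 in replicate 2 and 0 elsewhere. Dclk1, which neurons also express, had its highest normalized count (10.2) in 4-OHT replicate 3. Among the 4-OHT libraries, Sh2d6, Pou2f3 and Trpm5 were also highest in replicate 3, but Ptgs1 in replicate 1 and Alox5 in replicate 2. Sh2d6 was higher still in vehicle replicate 1 (14.0), as were Pou2f3 (4.26) and Trpm5 (17.7) in vehicle replicate 2. The part of other tissue in these values was not tested. Avil had 232, 220 and 225 in 4-OHT replicates 1, 2 and 3, where the part of other tissue was not tested either. The 8 neuron and glia markers summed to 1.67 to 2.35 with vehicle and 1.92 to 2.44 with 4-OHT. The 5 mast cell and megakaryocyte markers analysed, led by Kit, summed to 3.99 to 4.67 and 3.73 to 4.20, and the 9 lymphocyte and myeloid markers to 10.9 to 12.5 and 8.46 to 10.2. Cd68, a lysosomal protein gene of macrophages that carries most of that sum, was lower with 4-OHT (log2 fold change -0.42, limma adjusted p = 0.015). Csf1r, the macrophage growth factor receptor gene, was higher, with 14, 12 and 4 reads with vehicle and 15, 17 and 26 with 4-OHT (log2 fold change 1.20, limma adjusted p = 0.030).

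Other genes linked to tuft cells were taken from 6 lists of 57 genes, of which 55 were analysed. As among the members, many of these genes had few reads. Gnb3, a taste G protein subunit, had none, and 18 of the 55, Gnb3 included, had at most 3 reads in every library. Of the 12 taste-type genes, 6 were among these 18, while 4 others had enough reads for a test, led by Itpr3, a calcium channel of internal stores that many cells express, with 5113 to 9446 reads. Gnat3, the taste G protein gustducin, had 2 reads in 4-OHT replicate 3 and 0 elsewhere, and Gng13 had 1 read in all. Plcb2, the phospholipase that relays taste signals, had 3 reads in vehicle replicate 2, 2 in 4-OHT replicate 2 and 0 elsewhere. Sucnr1, the receptor for succinate, had 2 reads in 4-OHT replicate 3 and 0 elsewhere, and Rgs13, a regulator of G-protein signalling, had at most 4 in a library.

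Partners of ALOX5 in making leukotrienes differed in level. Lta4h, the leukotriene A4 hydrolase that many cells express, had 3398 to 5423 reads and was higher with 4-OHT (log2 fold change 0.16, SE 0.05, limma adjusted p = 0.0080). Alox5ap, the activator of ALOX5, had 0 to 3 reads in a library, and Ltc4s, the leukotriene C4 synthase, had 2 to 7. The transcription factor gene Spib had 0 to 7. Ptprc, the surface antigen CD45 that a subset of tuft cells shows, had 0 to 4, and Siglecf, a lectin of tuft cells and eosinophils, had 0 to 3. The POU2F3 coactivator gene 1810046K07Rik had 2 reads in vehicle replicate 2 and 0 elsewhere, and its relative Colca2 had 7 to 37 reads and did not pass the test (log2 fold change -0.14, limma adjusted p = 0.83).

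A total of 26 of the 55 genes reached the minimum for a test, and of these 12 (46.2%) were higher and 2 (7.69%) lower, against 22.7% higher and 21.0% lower over all genes. The median log2 fold change of the 26 was 0.20, against -0.0054 over all genes. By list, the test called 1 of 2 transcriptional regulators, 1 of 4 taste-type genes, 3 of 5 eicosanoid genes and 4 of 7 surface and other markers higher, with none lower. Of the 4 cytokine and receptor genes 2 were higher and 1 lower, and of the 4 immune-type adaptors and kinases 1 was higher and 1 lower. Several of these genes, such as the keratin gene Krt18, are expressed by many epithelial cells, so the counts are not counts of tuft cells. Without 4-OHT replicates 2 and 3 the counts were 9 higher and 3 lower, against 14.1% and 13.0% over all genes.

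Among the 26, the largest rise was that of Ptgs2, the inducible cyclooxygenase and relative of Ptgs1. Its normalized counts were 605, 719 and 661 with vehicle and 1932, 1951 and 1859 with 4-OHT. Every 4-OHT library was more than 2-fold above every vehicle library, and the log2 fold change was 1.53 (SE 0.06, limma adjusted p = 1.5e-12). Ptgs2 is made by many cell types. Hpgds, the synthase of prostaglandin D2, had 45.7, 48.2 and 49.6 with vehicle and 63.0, 58.0 and 97.9 with 4-OHT, and the groups did not overlap. Its log2 fold change was 0.56 (SE 0.21, limma adjusted p = 0.041), with the highest value in 4-OHT replicate 3. The call of Hpgds was lost in 7 of 17 alternatives, with a log2 fold change of 0.33 and a limma adjusted p of 0.25 when that library was left out. It was also lost without vehicle replicate 1, 2 or 3 (limma adjusted p = 0.097, 0.081 and 0.067).

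The largest fall among the 26 was that of Il17rb, a subunit of the receptor for IL-25. Its normalized counts were 65.3, 43.3 and 26.6 with vehicle and 14.5, 14.5 and 21.6 with 4-OHT. The groups did not overlap, although the vehicle libraries spread widely. The log2 fold change was -1.30 (SE 0.33, limma adjusted p = 0.0030), and it lay between -1.62 and -0.98 and past the threshold in all 16 alternatives that gave a value. The other gene that fell was Lyn, a Src-family kinase, by 0.33 on the log2 scale (SE 0.08, limma adjusted p = 0.0016).

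**Figure D4:**
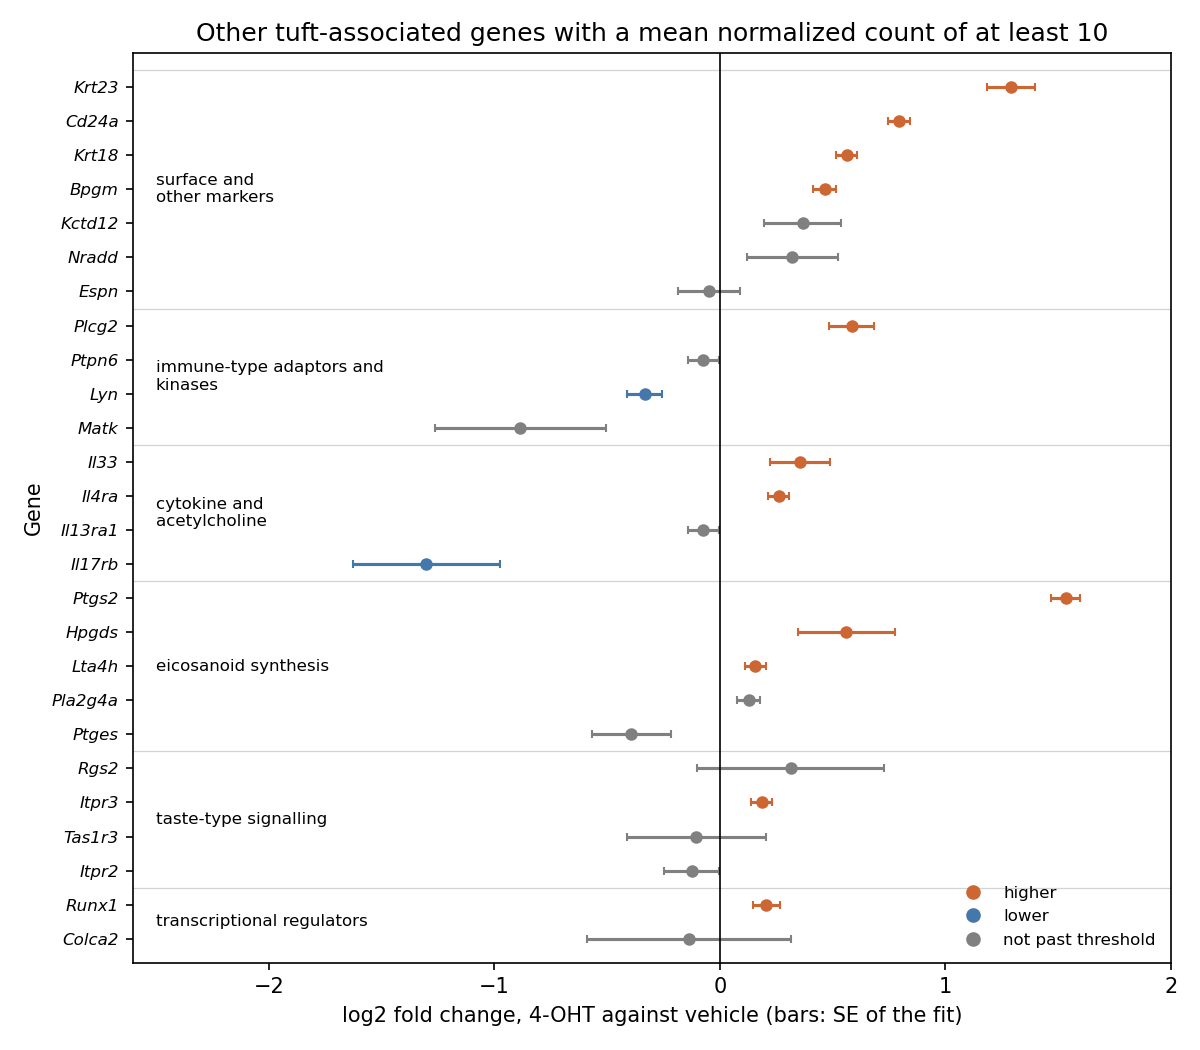
log2 fold changes, 4-OHT against vehicle (horizontal axis, bars are the SE of the fit), of the 26 other tuft-associated genes that could be tested (vertical axis, grouped by list). In orange are the 12 called higher, led by Ptgs2 at 1.53, in blue the 2 called lower, Lyn at -0.33 and Il17rb at -1.30, and in grey the rest.

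Of the 7 surface and other markers tested, 4 were higher in 4-OHT organoids (Krt23, Cd24a, Krt18 and Bpgm), against 22.7% of all genes. Cd24a, a surface glycoprotein of tuft and other crypt cells, had 2747 ± 161 with vehicle and 4760 ± 71.4 with 4-OHT, and Krt23 had 326 ± 35.0 and 806 ± 145 (SD, n = 3 each). Their log2 fold changes were 0.79 (SE 0.05) and 1.29 (SE 0.11), with limma adjusted p-values of 1.6e-10 and 9.4e-09. Krt18 rose by 0.56, Plcg2, a phospholipase of immune-type signalling, by 0.58, and Bpgm, an enzyme of 2,3-bisphosphoglycerate synthesis, by 0.47 on the log2 scale. Smaller rises were those of Il33, an epithelial alarmin (0.35), Il4ra, a receptor chain for IL-4 and IL-13 (0.26), and Runx1, a transcription factor (0.21, a call lost without both 4-OHT replicates 2 and 3, limma adjusted p = 0.13). The call of Il33 was lost in 7 of 17 alternatives, among them those without vehicle replicate 1 or 2 or 4-OHT replicate 1 or 3 (limma adjusted p = 0.068, 0.16, 0.055 and 0.20). Mki67, a marker of dividing cells, had 11357 ± 315 (SD, n = 3) with vehicle and 5636 ± 781 (SD, n = 3) with 4-OHT (limma adjusted p = 6.5e-10), and all 6 proliferation markers were lower, against 21.0% of all genes. The part of this fall in the values above was not tested.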

How the data were processed

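The table deposited by the authors holds a signal per gene, reads divided by 1 factor per library (normalized counts), without correction for gene length. The submitters' processing notes name STAR, DESeq2 and build GRCm39. Counting tool, strand setting and annotation are not given in the sources used here. All values (100%) were whole multiples of 1 step per library within 0.1 reads, so whole reads were recovered. Groups came from the sample titles. limma-trend (limma 3.58.1, R 4.3.3) was run on log2(normalized count + 1) over the 13210 genes with a mean of at least 10, two-sided, with Benjamini-Hochberg adjusted p-values under 0.05 called; fold changes are on that scale. Of the members, 2 of 8 reached this minimum. Alternatives were DESeq2 1.42.0 and edgeR 4.0.16 on recovered reads (edgeR called 5723 of 23313 genes with a read), 2 pseudocounts, 2 filters, TMM, quantile normalization, a replicate block and left-out libraries. Depth-scaled ratios have exact binomial intervals and cover counting error only. Replicate libraries differed by 3.34 to 6.04 times the counting variance (chi-square per degree of freedom), so none is a copy. Exon lengths, overlaps and shared 31-base stretches came from GENCODE vM21 (GRCm38), another build. The fits were also run on simulated counts, and no conclusion is drawn from that run. The members and lists were chosen with earlier results of these data known. Named genes are the members, Prkci, Prkcz, the 12 largest changes past the threshold without overlap among the other tuft-associated genes, a fixed set of defining genes, and the leading marker genes; Vil1, Tsfm, Tssc4, Gnb3, Itpr3, Lta4h, Csf1r, Colca2 and 1810046K07Rik were added after their values were seen. Chat and Slc18a3 were not analysed here. A further gene of the defining set is not reported here.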

Additional observations from a re-analysis of the deposited data

How the results depend on the processing

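Alternatives, 17 in all and 1 of them chosen after seeing the data, were run for Avil, Trpm5, Prkci, Prkcz, the 12 called tuft-associated genes named by rule, Atoh1, Muc2, Chga, Mki67, Tsfm and Tssc4, and no direction of these reversed. Avil was between 0.37 and 0.56 on the log2 scale with an adjusted p between 0.0016 and 0.066, and between 0.37 and 0.56 with each library left out. Trpm5 was between -0.70 and -0.16 and passed in none of 16. Without both 4-OHT replicates 2 and 3, 1858 genes were higher and 1711 lower, 0 tuft members were called, and Avil was at 0.49. This fit keeps 1 4-OHT library, which is assumed to vary like the vehicle libraries, and has fewer samples. With a minimum mean of 50, 1 of 21 other tuft-associated genes was lower, against 2612 of all 10987 genes. Il17rb was not tested there, and Trpm5 got no value. With each library left out, 9 to 12 of the 26 other tuft-associated genes were higher and 2 to 3 lower. Over all 13210 genes, 2614 to 2905 were higher and 2315 to 2725 lower in those fits. edgeR on the same genes gave 3 of the 26 lower, against 2822 of all 13210. The 7-letter form of the octamer was in 1 member window and the whole octamer in 0. Same-numbered libraries did not deviate together (correlations -0.0075, 0.030 and -0.020), so the numbers are not taken as pairs. With the replicate number as a block, 2938 genes were higher and 2699 lower, and 1 tuft member was higher. Among the other named genes 281 values kept their side of the threshold, 22 lost it (Hpgds, Il33, Chga, Runx1) and 2 gained it (Muc2); the cause was not tested. Depth limits Pou2f3, Gfi1b, Alox5, Dclk1, Sh2d6 and Ptgs1 most.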

Other observations

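Over the 6 libraries, the genes outside the lists whose log2 level was most like the mean of Avil and Trpm5 were Ybx3 (Pearson r = 0.985), Nectin3 (0.982), Parp8 (0.962), Ap2m1-ps (0.957) and 1700055D18Rik (0.956). The 6 points share the 2 treatment groups and the libraries, and with 13210 genes some lie close to any pattern. Avil and Trpm5 had log2 fold changes of opposite sign (0.45 and -0.34), so their mean is not a pattern that both share. In the marker lists, Ppbp, a platelet chemokine gene chosen after its values were seen, had 6, 8 and 4 reads with vehicle and 17, 24 and 16 with 4-OHT, with Pf4, its companion in platelets, at 1 to 7 reads in a library.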
